A study of Mus musculus with 19 samples.

Results

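The Tox family comprises Tox, Tox2, Tox3 and Tox4, 4 genes that encode nuclear proteins with a single high mobility group (HMG) box, a fold that binds and bends DNA. They were chosen by symbol, 4 of the 22878 gene symbols of the deposited RNA tables, with earlier results of these data in view, so the differences given here describe these libraries and are not independent support for the choice. The transcript of a symbol was selected on its total reads over all 16 RNA libraries, which left no choice to make, since each of the 4 had 1 transcript. These were NM_145711 (Tox, 2852 bases), NM_001098799 (Tox2, 1675 bases), NM_172913 (Tox3, 3193 bases) and NM_023434 (Tox4, 4458 bases). Over the 16 libraries they held 1008, 1984, 36 and 26410 reads.

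The libraries come from mouse CD4 T cells grown under T helper 2 (Th2) conditions, the setting in which such cells come to secrete interleukins 4, 5 and 13. In the Bcl11b experiment, naive CD4 T cells came from mice with floxed Bcl11b alleles and CreERT2, a Cre recombinase that 4-hydroxytamoxifen (4-OHT) switches on. Knockout (KO) cultures received 4-OHT. Wild-type (WT) cultures carried the same floxed alleles and the same CreERT2 but received no 4-OHT, so effects of 4-OHT and of the deletion cannot be told apart. Early cells had 4 days of Th2 culture. Late cells had 4 days of Th2 culture, 1 day of rest in medium with IL-2 and 4 more days of Th2 culture, and 4-OHT was given only in the last period. The Gata3 experiment has early and late WT and KO libraries too; the sources used here do not give the genotype of its mice, the way Gata3 was deleted or its culture times. Each of the 8 groups has 2 libraries. Chromatin immunoprecipitation (ChIP) with antibodies to Bcl11b and to GATA3 was done in late WT cells, with 1 library per antibody and 1 input library.

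Tox is known for its part in the development of CD4 T cells in the thymus and for the exhausted state of T cells under lasting antigen, where calcineurin and NFAT signalling induce it. Tox2 is known from T follicular helper (Tfh) cells, the CD4 cells that help B cells, where it acts with Bcl6. Tox3 is known mainly from neurons and from breast and other epithelia. Tox4 is broadly expressed and binds to a protein phosphatase complex, PTW/PP1, with Ppp1r10 and Wdr82. Bcl11b is a zinc-finger factor of T cell commitment, and Gata3 directs Th2 differentiation.

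DNA from before the Tox2 starts is shown because Tox2 had the widest swings between groups and a Bcl11b and a GATA3 peak near its upstream starts. RefSeq lists upstream Tox2 starts at positions 163203127, 163203283 and 163204186 of chromosome 2, of which the first and second lie inside the Bcl11b peak, none lies inside the GATA3 peak and the last lies past both. The inner starts, at 163225453 and 163225454, include that of the authors' transcript, and no peak lay there. The sequences are from RefSeq on build GRCm38.p6, plus strand, 5′ to 3′. The upstream stretch, chr2:163202877-163203057, ends at the base before RefSeq's Tox2 span, with 69 bases between its end and the first listed start. The inner stretch, chr2:163225203-163225452, ends at the base before the first inner start. Capitals mark the match to TATAAA, the core of a TATA box.
Tox2 upstream stretch: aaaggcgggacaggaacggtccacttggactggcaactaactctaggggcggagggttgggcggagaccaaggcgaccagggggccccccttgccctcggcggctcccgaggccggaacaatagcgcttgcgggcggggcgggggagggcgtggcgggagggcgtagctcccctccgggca
Tox2 inner stretch: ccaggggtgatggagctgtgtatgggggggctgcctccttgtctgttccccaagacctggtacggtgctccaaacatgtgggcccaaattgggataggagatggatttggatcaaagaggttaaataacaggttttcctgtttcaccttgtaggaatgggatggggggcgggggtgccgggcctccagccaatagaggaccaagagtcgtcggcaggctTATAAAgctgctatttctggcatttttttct
The upstream stretch of 181 bases was 71.8% G and C, held 17 CpG dinucleotides and had no TATAAA. The inner stretch of 250 bases was 52.8% G and C, held 5 CpG and had 1 TATAAA whose first base lay 31 bases before the first inner start. Over all 32817 RefSeq windows of 300 bases around gene starts, 8.32% held TATAAA on the gene's strand. The GATA motif was searched on both strands as AGATAA or as AGATAG, and with T in place of the first letter as TGATAA or as TGATAG. It was in 29.8% of those windows and in none of the windows of Tox2, Tox3 and Tox4, the 3 of 4 members that matched. These matches describe letters only.

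Depth and library quality bear on the values that follow. The Bcl11b libraries held 4687552 to 14577958 gene reads and the Gata3 libraries 5117526 to 9892746. Both early WT libraries of the Bcl11b cultures stood apart: sensory receptor transcripts, which T cells are not known to use, carried 3.73 and 4.82 reads per kb there and at most 0.502 in the other 14 libraries. The summed level of 6 Th2 markers was 591 to 956 CPM (counts scaled to a common library size) in the 4 early libraries of the Bcl11b experiment and 4291 to 6214 CPM in its 4 late libraries. The targeted genes kept reads in the KO libraries, and the tables do not show in which part of the gene those reads lie. Bcl11b fell by 1.11 ± 0.28 (log2, SE; adjusted p = 0.0185) in early KO cells and was -0.59 ± 0.28 (adjusted p = 0.419) in late ones. Gata3 fell by 1.53 ± 0.11 (adjusted p = 6.36e-06) in early KO and by 0.40 ± 0.11 (adjusted p = 0.0388) in late KO cells.

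Levels below are CPM after TMM scaling, a correction for library composition, and CPM per kb of transcript where genes are compared. Fold changes are log2 values ± SE. Tests are edgeR's quasi-likelihood F tests, with p adjusted over all genes tested, and "called" means an adjusted p below 0.05. The labels do not say if the 2 libraries of a group are from separate mice or cultures, and p-values then reflect the spread between libraries alone. In bulk RNA, fewer cells of a type and less RNA per cell cannot be told apart. The experiments were scaled separately, so an order of levels across them is approximate.

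The 4 members differed widely in level and in how far the level moved. Tox4 had a median of 40.2 CPM per kb over the 16 libraries and ranged from 35.7 to 45.2, a spread of 1.27-fold. Tox2 had a median of 3.74 and ranged from 0 to 20.1 CPM per kb. Tox had a median of 1.08 and ranged from 0.0874 to 12.2 CPM per kb. Tox3 was at 0 in 11 libraries and reached at most 0.984 CPM per kb. Tox4 was thus the steady member, and Tox and Tox2 were the moving ones.

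**Figure D1:**
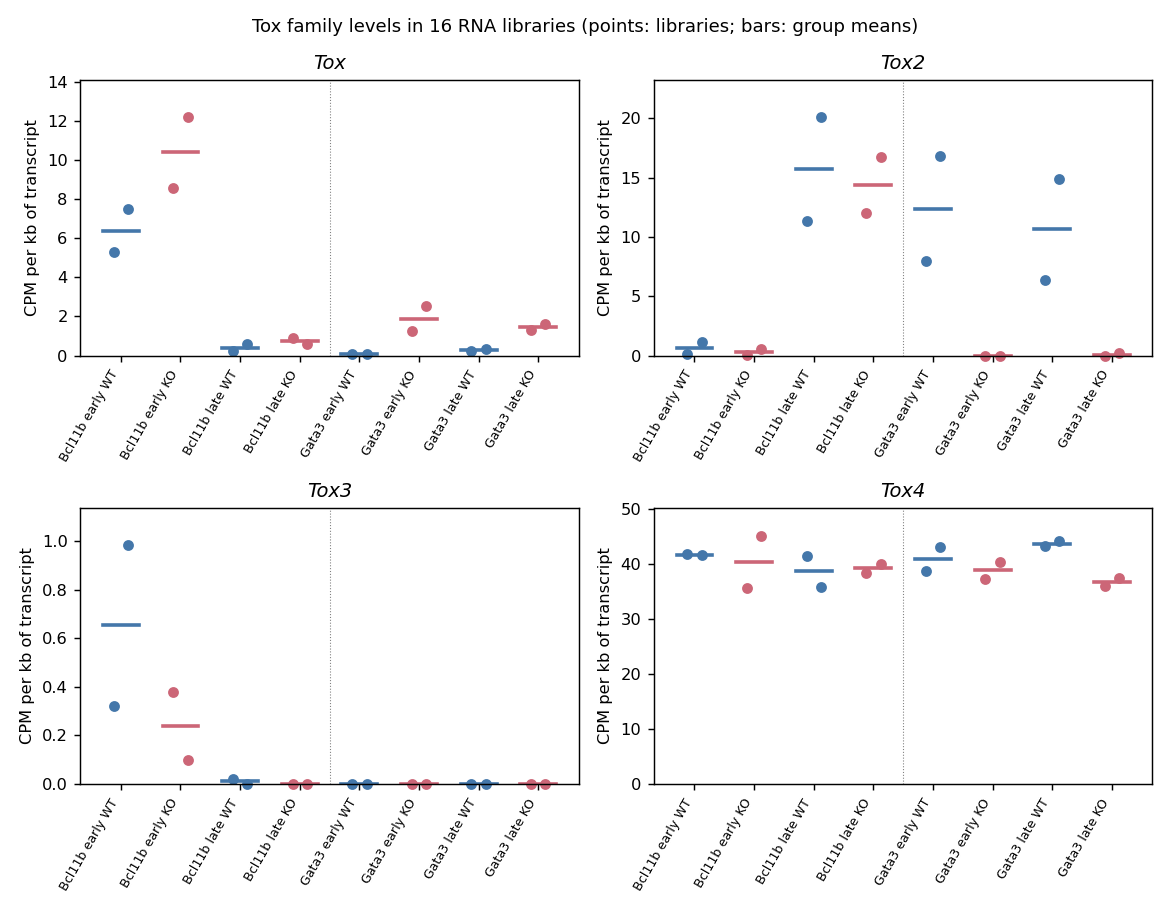
Level of each Tox family gene in CPM per kb of transcript (vertical axis, from 0) in the 8 groups of RNA libraries (horizontal axis). Points are the 2 libraries of a group, bars are their means, blue is WT and red is KO. Tox2 is high in late Bcl11b-experiment cells and in Gata3-experiment WT cells, Tox is high in early Bcl11b-experiment cells, and Tox4 stays between 35.7 and 45.2.

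Tox2 had a high and a low set of libraries with a wide gap between them. In the late Bcl11b-experiment cells, WT libraries had 19.0 and 33.7 CPM of Tox2, and KO libraries had 20.2 and 28.0 CPM. In the Gata3 experiment early WT had 13.4 and 28.2 CPM, and late WT had 10.7 and 25.0 CPM. In the early Bcl11b-experiment cells WT had 0.206 and 1.88 CPM, and KO had 0.101 and 0.958 CPM. All 8 libraries of the first sets lay above every one of the early Bcl11b-experiment libraries. Early Gata3 KO cells had no Tox2 read in either library, and late Gata3 KO cells had 0 and 3 reads, or 0 and 0.301 CPM. With 3 counts as the limit that no read allows, the shallowest of these 3 libraries without a read could have held 0.584 CPM.

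Ordered by mean CPM per kb, Tox2 ran from late Bcl11b-experiment WT (15.7 ± 6.24, SD, n = 2) through late KO (14.4 ± 3.30), early Gata3-experiment WT (12.4 ± 6.25) and late Gata3-experiment WT (10.6 ± 6.05). These 4 groups overlapped from neighbour to neighbour. A gap followed, down to early Bcl11b-experiment WT (0.624 ± 0.709) and early KO (0.316 ± 0.362), which overlapped each other, and then to late Gata3 KO (0.0898 ± 0.127) and early Gata3 KO, with no read. At the rate of reads over sensory receptor transcripts, Tox2 would hold 6.25 and 8.07 reads in the early WT libraries, which had 1 and 9. The place of early WT among the low groups is therefore uncertain.

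Tox had another order. It was at 24.4 and 34.8 CPM in early Bcl11b KO cells and at 15.0 and 21.4 CPM in the early WT cells of that experiment. Both KO libraries lay above both WT libraries. In late Bcl11b-experiment cells WT had 0.630 and 1.63 CPM and KO had 2.56 and 1.68 CPM, again with both KO libraries above both WT libraries, though the closest pair differed little. In the Gata3 experiment, the early WT libraries had 0.270 and 0.249 CPM of Tox against 3.59 and 7.22 CPM in early KO. The late WT libraries had 0.620 and 0.957 CPM against 3.70 and 4.61 CPM in late KO. The Gata3 WT levels rest on 2, 2, 6 and 9 reads. In all 4 KO against WT pairs of groups, the KO libraries did not overlap the WT libraries. The share of all genes that separate in this way was not computed. Tox was not called by edgeR in the Bcl11b-experiment pairs.

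By mean CPM per kb, Tox ran from early Bcl11b KO (10.4 ± 2.59, SD, n = 2) and early Bcl11b-experiment WT (6.38 ± 1.57) to early Gata3 KO (1.90 ± 0.899) and late Gata3 KO (1.46 ± 0.225). The last 2 overlapped each other. Late Bcl11b KO (0.743 ± 0.218), late Bcl11b-experiment WT (0.396 ± 0.248), late Gata3-experiment WT (0.277 ± 0.0834) and early Gata3-experiment WT (0.0911 ± 0.00515) followed, and of these the late WT groups overlapped.

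Set side by side per kb, Tox and Tox2 were rarely high in the same library. Tox exceeded Tox2 in 8 libraries, the 4 early ones of the Bcl11b experiment and the 4 Gata3 KO ones. Tox2 exceeded Tox in the other 8 libraries, the 4 late ones of the Bcl11b experiment and the 4 Gata3-experiment WT ones. The widest reversals were early Gata3 KO, with 1.26 and 2.53 CPM per kb of Tox and no Tox2 read, and early Gata3-experiment WT, with 0.0947 and 0.0874 CPM per kb of Tox and 7.98 and 16.8 of Tox2. This is a description of 16 libraries in 8 groups, and libraries of 1 group are not independent points.

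**Figure D2:**
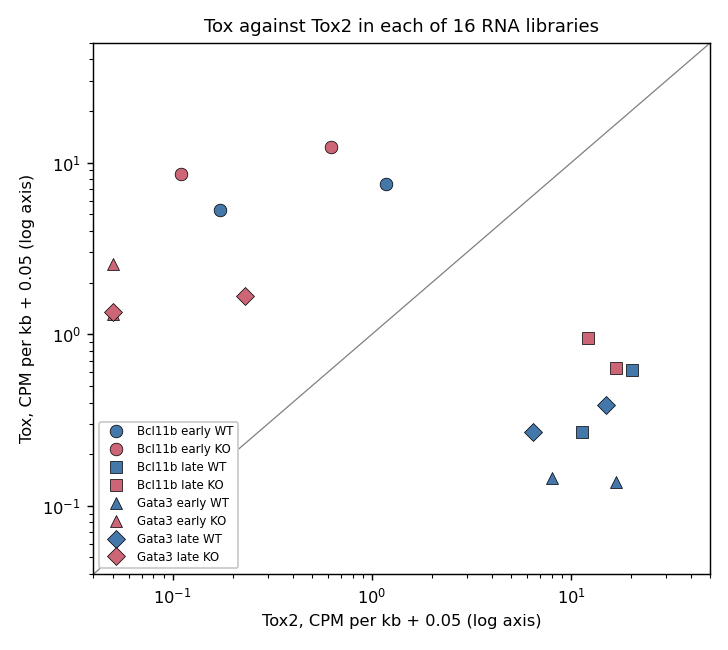
Tox (vertical axis) against Tox2 (horizontal axis) in CPM per kb + 0.05, both axes logarithmic, with 1 symbol per RNA library. Symbol shape gives experiment and stage, blue is WT and red is KO, and the grey line marks equal levels. Of the 16 libraries, 8 lie above the line and 8 below it, and 1 early Gata3 KO library is hidden behind the late one at no Tox2.

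Tox3 had too few reads to be tested under the filter on low values. It had 5 and 15 reads in early Bcl11b-experiment WT libraries, 12 and 3 in early Bcl11b KO, 1 and 0 in late WT, and none in the other 10 libraries. At the rate of reads over sensory receptor transcripts, the length of Tox3 would hold 11.9 and 15.4 reads in the 2 early WT libraries and 1.60 and 0.913 in the 2 early KO libraries. The early WT counts were thus at or under that rate, and the early KO counts were above it. Of markers of neural and epithelial cells, where Tox3 is known, 5 of the 7 in the tables had reads in the early KO libraries (49.1 and 49.7 CPM summed). Krt8 and Snap25 had none. The same sum was 53.4 to 68.8 CPM in early WT. Among groups without a Tox3 read it ran from 9.28 to 9.91 CPM in early Gata3 KO up to 87.9 to 105 CPM in late Bcl11b KO. The part of these markers in the Tox3 reads was not tested.

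Between KO and WT cells, the family moved most in the Gata3 experiment. Of the 2 members that passed the filter on low values, Tox2 was called lower at both stages and Tox4 was called at neither, against 30.8% of 10601 genes called early (14.4% higher and 16.3% lower) and 14.1% called late (8.51% higher and 5.56% lower). Early, 0 KO reads against 325 WT reads made Tox2 at least 126-fold lower in KO cells, with 3 counts over the KO group as the floor (adjusted p = 2.03e-04). Late, 3 reads against 338 gave a ratio of KO to WT of 0.0112, with an exact 95% interval of 0.00230 to 0.0330 that covers counting error only (adjusted p = 0.00160). Adjusted p-values for Tox2 stayed at or below 5.10e-04 early and 0.00280 late under all settings tried with every library. The effect on Tox2 was not called different between stages (4.06 ± 3.11, adjusted p = 0.452, with 12.1% of genes called), where the fitted value depends on how an absence of reads is treated.

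In the Gata3 experiment Tox did not pass the filter, which asked for an RPKM of 1 or more in 2 or more libraries. Without the filter, Tox was higher in early KO cells by 4.30 ± 0.61 (adjusted p = 3.32e-09, with 25.6% of 16268 genes called) and in late KO cells by 2.38 ± 0.50 (adjusted p = 1.17e-04, with 13.9% called). With a filter on read counts, added after the values were seen, the changes were 4.31 ± 0.60 (adjusted p = 3.61e-04, with 31.2% of 12010 genes called) and 2.39 ± 0.49 (adjusted p = 0.0102, with 13.5% called). Under the other settings the adjusted p reached 0.00825 early, which kept the call, and 0.0764 late, which ended it, in limma on log2(RPKM + 1) with a difference of 0.66. The early and late effects were not called different (-1.92 ± 0.88, adjusted p = 0.163). In these libraries Tox was thus higher and Tox2 lower in Gata3 KO than in WT cells at both stages.

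Markers of other cells differed between these groups too, not all in the direction of Tox. The 2 CD8 T cell markers summed to 31.0 to 39.2 CPM in early Gata3 KO against 8.35 to 11.5 CPM in WT, and to 19.6 to 24.5 CPM in late KO against 10.9 to 11.9 CPM in WT. All 6 natural killer (NK) cell markers together were at 5425 to 8699 CPM in early KO and 2414 to 3439 CPM in WT, while Klra8 and Ncr1 had no reads in any Gata3-experiment library. Late, the same sum was lower in KO (946 to 1792 CPM) than in WT (2760 to 4036 CPM). Of the 4 NK markers tested, all 4 rose early. Late, 1 rose and 1 fell, with a median log2 change of 1.45, so single markers went both ways. B cell markers stayed at or below 5.65 CPM in all 8 libraries. The part of CD8 and NK cell genes in the Tox result was not tested. With Tox2 moved the 6 Th2 markers, which are Gata3, Il4, Il5, Il13, Il1rl1 and Ccr8. All 6 fell in early KO and 5 in late KO cells. Gata3 is the gene targeted in this experiment, so its fall at both stages follows from the design. With Gata3 included, the summed levels were 431 to 450 CPM early and 1164 to 1281 CPM late against 3544 to 3852 CPM in WT.

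Tox4 was nearly level in the Gata3 experiment. It was at 173 and 192 CPM in early WT, 167 and 180 in early KO, 193 and 197 in late WT, and 161 and 167 in late KO. The early groups overlapped and the late groups did not, and the share of all genes that separate in this way was not computed. Its changes were -0.07 ± 0.11 early (adjusted p = 0.653) and -0.25 ± 0.11 late (adjusted p = 0.166).

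**Figure D3:**
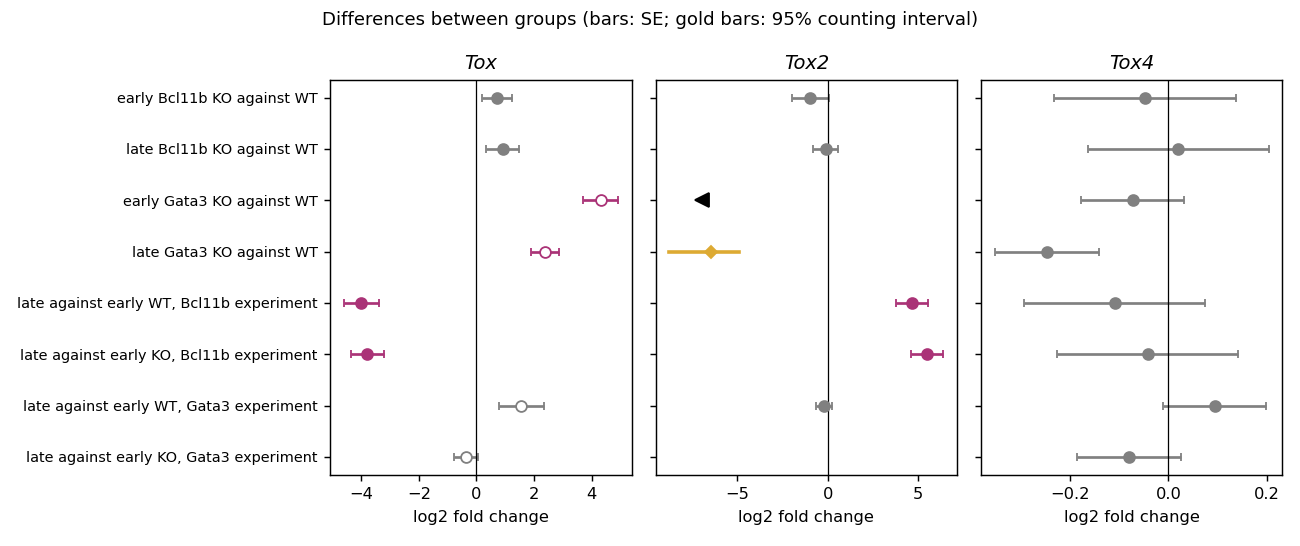
Log2 fold changes (horizontal axis, a separate scale per gene) of Tox, Tox2 and Tox4 in 8 comparisons (vertical axis), with bars of 1 SE. Purple marks an adjusted p under 0.05 and open circles fits without the filter on low values; the black triangle is the lower bound where KO had no read, and the gold diamond the ratio with its 95% counting interval. Tox2 lies far to the left for both Gata3 comparisons and far to the right for both late against early comparisons of the Bcl11b experiment.

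Between the libraries labelled Bcl11b KO and WT, no member was called by edgeR. In simulated libraries with the common spread of each experiment, the early Bcl11b comparison recovered 17% of 2-fold and 88% of 4-fold changes. For the early Gata3 comparison these were 88% and 100%. An absence of calls here therefore does not show that changes of about 2-fold were absent. The 200 changed genes had a minimum mean of reads, taken over all 8 libraries of an experiment. These recovery shares thus do not cover Tox2 at its 10 reads in each early Bcl11b-experiment group, and the late comparisons were not simulated. None of the 3 members that passed the filter (Tox, Tox2 and Tox4) was called early, where 21.3% of 10873 genes were called (10.3% higher and 11% lower), or late, where 2.34% were (1.78% higher and 0.552% lower). Tox differed by 0.70 ± 0.51 early (adjusted p = 0.365) and by 0.91 ± 0.58 late (adjusted p = 0.627). Both KO libraries lay above both WT libraries at each stage, late by little (1.68 against 1.63 CPM for the closest pair). The share of all genes that separate in this way was not computed. Tox2 differed by -0.98 ± 1.03 early (adjusted p = 0.537) and by -0.13 ± 0.68 late (adjusted p = 0.993). The early value rests on 10 reads in each group, and the WT reads were near or under the sensory receptor rate. The late Tox2 groups overlapped, with the WT libraries on both sides of the KO ones. Tox4 differed by -0.05 ± 0.19 and 0.02 ± 0.18 (adjusted p = 0.887 and 0.997). With limma on log2(RPKM + 1), where 63.4% of genes were called and the median over all genes was 0.86, Tox (1.30) and Tox4 (1.04) were called higher in early KO cells. With log2(RPKM + 0.1), 64% of genes were called, the median was 1.14, and Tox was 1.80 and Tox4 1.12. The difference of these effects between stages was called for 3.46% of genes and for no member by edgeR. On the same 2 limma scales it was called for 55.7% and 53.8% of genes and for Tox and Tox4, and for Tox4 alone.

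Markers of other cells moved between these groups too. Early, the 2 CD8 T cell markers summed to 80.3 to 96.0 CPM in KO against 42.2 to 42.3 CPM in WT, and the 6 NK cell markers to 496 to 520 against 165 to 201 CPM, with Klra8 and Ncr1 without reads in KO. The mast cell and basophil markers summed to 41.4 to 43.8 CPM in early KO against 4.12 to 15.9 CPM in WT, with Fcer1a, Mcpt4, Mcpt8 and Ms4a2 without reads in KO. The 8 T cell markers themselves summed to 4303 to 4846 against 2792 to 3314 CPM. Other lists were lower in early KO than in early WT. Macrophage and dendritic cell markers summed to 25.7 to 37.6 against 52.5 to 75.8 CPM, and erythroid and neutrophil markers to 9.90 to 10.1 against 20.2 to 23.9 CPM. Late, macrophage and dendritic cell markers summed to 51.2 to 51.3 CPM in KO against 12.8 to 17.2 CPM in WT. The late B cell markers summed to 17.0 to 23.1 CPM in KO against 4.04 to 4.34 CPM in WT. The part of all these markers in the Tox values was not tested.

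Late against early cells of the Bcl11b experiment held the other large changes. In WT cells, 2 of 3 tested members were called, where 41.9% of genes were (19.8% higher and 22.2% lower), and in KO cells also 2 of 3, where 36.9% were (18.2% higher and 18.7% lower). Tox2 rose by 4.65 ± 0.88 in WT (adjusted p = 0.00183) and by 5.49 ± 0.90 in KO cells (adjusted p = 9.30e-04). Tox fell by 4.00 ± 0.60 in WT (adjusted p = 4.37e-04) and by 3.78 ± 0.58 in KO cells (adjusted p = 6.18e-04). Tox4 differed by -0.11 ± 0.19 and -0.04 ± 0.18 (adjusted p = 0.663 and 0.878). Without the early WT libraries that stood apart, the KO values were 5.44 for Tox2 (adjusted p = 2.56e-04) and -3.84 for Tox (adjusted p = 4.56e-04). These calls held in all settings, but the sizes did not. In limma on log2(RPKM + 1), Tox was -0.86 in WT and -2.0 in KO cells and Tox2 was 2.99 and 2.71, and with receptor background subtracted Tox2 was 7.72 in WT. Leaving out 1 early WT library or the other gave 3.80 (without replicate 1) and 6.87 (without replicate 2) for Tox2 in WT, and leaving out early KO replicate 2 gave 7.74 in KO cells. Tox in WT was -4.82 without late WT replicate 2 and -3.47 without late WT replicate 1.

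Other members were called here under some settings. Tox4 in late against early WT was 1.25 and 1.34 on the 2 limma scales (adjusted p = 5.90e-04 and 6.84e-04), where 71.5% and 71.4% of genes were called and the medians over all genes were 1.04 and 1.43. With the read-count filter, Tox3 was called lower in late WT (adjusted p = 0.0220, with 49.9% of 15761 genes called) and late KO cells (adjusted p = 0.0483, with 25.1% called), but not without a filter (0.0764 and 0.128).

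Markers moved between these stages as well. The 6 B cell markers, Pax5 and Ms4a1 among them, summed to 63.9 to 79.9 CPM in the 4 early libraries, 4.04 to 4.34 CPM in late WT and 17.0 to 23.1 CPM in late KO. The 2 CD8 T cell markers summed to 42.2 to 42.3 CPM in early WT and 80.3 to 96.0 CPM in early KO, and to 10.2 to 19.9 CPM late. Erythroid and neutrophil markers summed to 20.2 to 23.9 CPM in early WT and at most 0.0709 CPM in late WT. Macrophage and dendritic cell markers summed to 52.5 to 75.8 CPM in early WT and 12.8 to 17.2 CPM in late WT. In KO cells these markers went the other way, from 25.7 to 37.6 CPM early to 51.2 to 51.3 CPM late. Mast cell and basophil markers summed to 41.4 to 43.8 CPM in early KO and 1.89 to 3.62 CPM in late KO. The 6 Th2 markers rose with Tox2, all 6 in WT and 5 in KO cells. Their part in the Tox and Tox2 changes was not tested.

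In the Gata3 experiment, Tox2 differed by -0.23 ± 0.45 between late and early WT cells (adjusted p = 1.00), with overlapping groups, and no gene of 10601 was called by edgeR (0% called; 124 genes had an unadjusted p under 0.05, and DESeq2 called 0). The early WT cells of that experiment already had more Tox2 than Tox, an order that in the Bcl11b experiment the 4 late libraries had and the 4 early ones did not. Late against early Gata3 KO cells, with 24.7% of genes called, gave no call for Tox4 (-0.08 ± 0.11, adjusted p = 0.629), and Tox2 had 3 reads against 0, too few for a fold. Without the filter, Tox differed by 1.56 ± 0.78 between late and early WT (adjusted p = 1.00) and by -0.36 ± 0.40 between late and early KO (adjusted p = 0.638).

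The genes around the family were followed through 6 lists, given here as counts of called genes beside the calls over all genes stated above. Of Tfh genes linked to Tox2, 7 of the 8 tested fell and none rose in early Gata3 KO cells, with a list median of -2.01 against 0.01 over all genes. They included Il21, the Tfh cytokine (-5.51 ± 0.35, adjusted p = 2.44e-06), Icos, a costimulatory receptor (-2.03 ± 0.15, adjusted p = 5.79e-06), and Batf, an AP-1 factor (-2.32 ± 0.19, adjusted p = 1.40e-05). Il21 was at 53.1 and 75.2 CPM in early WT and at 1.63 and 1.15 CPM in early KO cells. In late Gata3 KO cells 2 rose and 2 fell, with Il21 at 43.8 and 70.7 CPM in WT and 41.9 and 48.6 CPM in KO, while Tox2 had 3 reads. In Bcl11b KO against WT cells, none of 10 tested was called early, and late only Pou2af1, a coactivator of B and Tfh cells, rose (1.85 ± 0.27, adjusted p = 0.00732).

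Of inhibitory receptor and exhaustion genes linked to Tox, 6 rose and 7 fell among 14 tested in early Gata3 KO cells. Eomes, a T-box factor of memory and exhausted CD8 cells, rose by 8.02 ± 0.32 (adjusted p = 3.10e-07) and Cd160, an NK and CD8 receptor, by 5.89 ± 0.35 (adjusted p = 1.58e-06). Ctla4, an inhibitory receptor, fell by 2.19 ± 0.14 (adjusted p = 3.09e-06). In late Gata3 KO cells 4 rose and 1 fell, with Eomes at 3.48 ± 0.40 (adjusted p = 4.65e-04). For Bcl11b KO against WT, 3 rose and 1 fell of 13 early, and 3 rose and none fell late. Havcr2, which encodes the inhibitory receptor TIM-3, rose by 2.41 ± 0.29 early (adjusted p = 4.15e-04) and by 1.47 ± 0.25 late (adjusted p = 0.0135), and Cd244 rose by 6.41 ± 0.63 late (adjusted p = 6.88e-04). In early Gata3 KO cells, where Tox was higher, the genes of this list thus moved in both directions, and 2 of them, Batf and Cd200, are also in the Tfh list.

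Of calcineurin, NFAT and NR4A genes, which act before Tox, 3 rose and 2 fell of 10 tested in early Gata3 KO cells and 2 rose and 2 fell in late ones. Ppp3cc, a catalytic subunit of calcineurin, rose by 0.99 ± 0.11 early (adjusted p = 6.36e-05) and 1.18 ± 0.11 late (adjusted p = 9.72e-05), and Nfatc3 rose by 1.27 ± 0.16 and 1.07 ± 0.15. Ppp3ca, another catalytic subunit, fell by 1.08 ± 0.18 early. In the Bcl11b experiment 3 rose and 1 fell of 13 early, and 1 fell late. That one was Ppp3cb, also a catalytic subunit, which fell by 1.03 ± 0.19 early and by 0.86 ± 0.19 late (adjusted p = 0.0396).

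Of CD4 lineage development genes, 6 rose and 4 fell of 14 in early Gata3 KO cells, Gata3 itself among the latter. Late, 3 rose and 1 fell, which was again Gata3. Cd8a rose by 3.53 ± 0.35 early (adjusted p = 4.18e-05) and 2.09 ± 0.35 late (adjusted p = 0.00336). In the Bcl11b experiment 2 rose and 2 fell early, the targeted Bcl11b among the latter, and 1 rose late. Cd4 rose at both stages (adjusted p = 4.97e-04 early, and by 1.41 ± 0.17 late, adjusted p = 0.00277). Of 18 other HMG-box genes tested, 6 rose and none fell in early Gata3 KO cells, led by Tcf7, a factor of naive and memory T cells (3.36 ± 0.35), and Tcf7 alone rose late (1.61 ± 0.33, adjusted p = 0.0110). In the Bcl11b experiment 1 rose and 2 fell early, and Hmgb2, a chromatin protein of dividing cells, fell at both stages (-1.03 ± 0.20 and -1.06 ± 0.20). Of the 5 partners of Tox4 in PTW/PP1, 2 rose in early Bcl11b KO cells, none was called late, and 1, the phosphatase subunit Ppp1cb, fell in both Gata3 comparisons (-0.55 ± 0.13 and -0.67 ± 0.13).

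The 5 genes whose CPM pattern was most like that of a member were listed for the members that passed the filter in both experiments, Tox2 and Tox4. The measure was Pearson's r of log2(CPM + 1), centred within each experiment, over 16 libraries and among 9986 genes. Those most like Tox2 were Sgce (r = 0.963), Il1rl1 (0.958), Gm6213 (0.954), 4930506M07Rik (0.954) and Cpox (0.952). Il1rl1 encodes ST2, the receptor for IL-33 on Th2 cells. It was at 818 to 1415 CPM in the 4 late libraries of the Bcl11b experiment and at 883 to 1072 CPM in the 4 Gata3-experiment WT libraries. In the low Tox2 libraries it was at 3.91 to 24.5 CPM (early, Bcl11b experiment) and 3.55 to 53.2 CPM (Gata3 KO). For Tox4 the highest were Ano6 (0.807), Bmi1 (0.792), Ndufv1 (0.745), Scyl3 (0.743) and 4732471D19Rik (0.743), over a range of Tox4 levels that was itself narrow.

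Binding was read from the authors' peak lists, which assign each peak to the gene with the closest start and give coordinates on mm10, the same assembly as GRCm38. Reads and fold enrichment per peak are the authors' values, with 1 library per antibody and therefore no replicate check. Peaks that overlapped a peak of the input library by at least 1 base were left out. Tox2 and Tox carried most of the family's peaks. For Bcl11b, 5 peaks remained: 2 at Tox, 2 at Tox2, 1 at Tox3 and none at Tox4. For GATA3, 11 remained: 6 at Tox, 4 at Tox2, none at Tox3 and 1 at Tox4. Over all 22878 symbols, 32.8% had a Bcl11b peak and 38.2% a GATA3 peak, 4.07% had 6 or more GATA3 peaks and 8.02% had 4 or more.

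**Figure D4:**
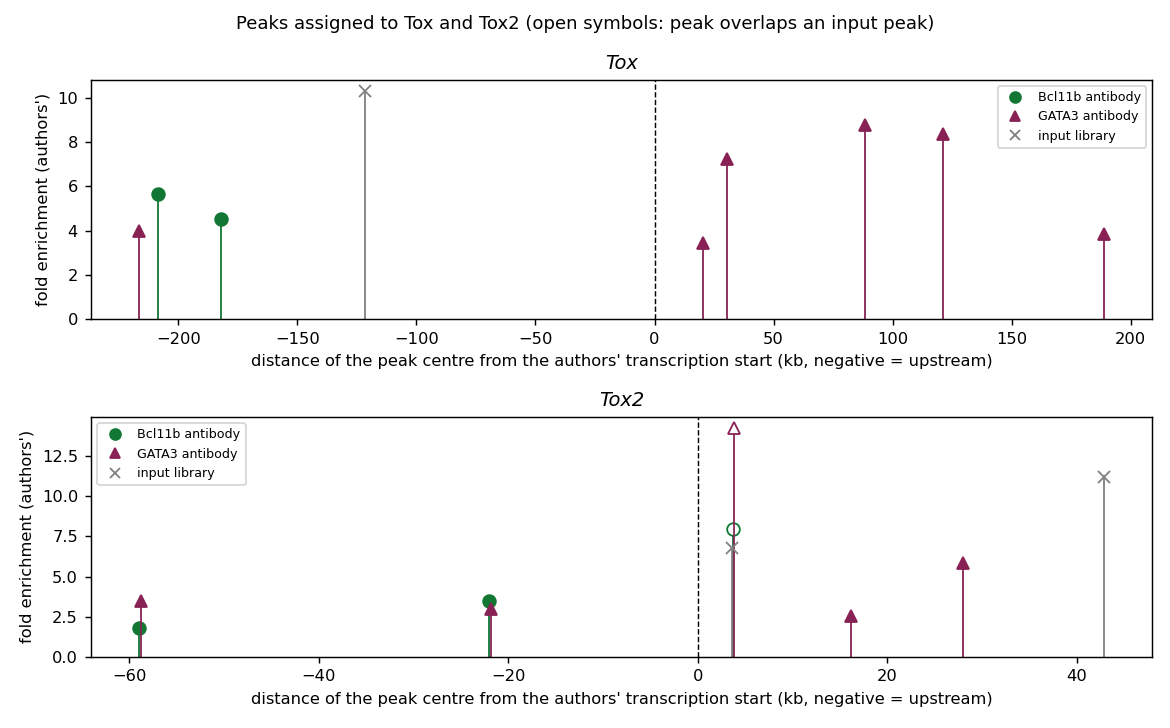
Authors' fold enrichment (vertical axis) of peaks assigned to Tox and Tox2 against distance from the authors' transcription start in kb (horizontal axis, negative for upstream). Circles are Bcl11b, triangles GATA3 and crosses input peaks, and open symbols overlap an input peak. The highest Tox2 symbol of each antibody, at 3.77 and 3.81 kb, is open; for Tox, 5 of 6 GATA3 triangles lie inside the gene and both Bcl11b circles lie far upstream.

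Tox2 lies on the plus strand at chr2:163203058-163324172 in RefSeq, a span that begins at the base after the upstream stretch shown above. Its strongest peaks lay in the gene, in the first part after the inner start. The GATA3 peak at chr2:163228889-163229635 had 121 reads and a fold enrichment of 14.2, rank 232 of 28612 by score. The Bcl11b peak at chr2:163228782-163229672 had 92 reads and a fold of 7.93, rank 289 of 17459. Both overlapped an input peak by 186 bases (19 reads, fold 6.77) and were therefore not counted.

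Of the counted peaks, Bcl11b and GATA3 shared 2, both at Tox2. One pair lay near the upstream starts, where the Bcl11b peak chr2:163202896-163203910 (46 reads, fold 3.50) contained the GATA3 peak chr2:163203318-163203885 (23 reads, fold 2.97). The Bcl11b peak covered 162 of the 181 bases printed above, and the GATA3 peak began after the second listed start. The other pair lay at -59.0 and -58.8 kb from the inner start, with 23 reads and a fold of 1.78 for Bcl11b and 17 reads and a fold of 3.49 for GATA3. The other 2 GATA3 peaks were inside the gene at 16.2 kb (8 reads, fold 2.56) and 28.0 kb (56 reads, fold 5.85). Over all genes, 43.6% of counted Bcl11b peaks overlapped a GATA3 peak, and 27.0% of counted GATA3 peaks overlapped a Bcl11b peak. For these shares the peak of the other antibody could be counted or not.

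Tox lies on the minus strand at chr4:6686353-6991557. Its GATA3 peaks were spread through the gene at 20.2, 30.5, 88.4, 121 and 189 kb from the start, with folds of 3.47, 7.23, 8.77, 8.38 and 3.87, and 1 lay upstream at -217 kb (fold 3.97). The 2 Bcl11b peaks lay upstream at -182 kb (12 reads, fold 4.54) and -209 kb (23 reads, fold 5.68), and none overlapped a GATA3 peak. The peak nearest to the Tox start was the one at 20.2 kb. These peaks are from late WT cells, in which Tox had 9 and 23 reads in the Bcl11b experiment.

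Tox3 (minus strand, chr8:90247110-90349029) had 1 Bcl11b peak 153 kb past its start, outside the gene (11 reads, fold 3.10). Tox4 (plus strand, chr14:52279146-52295509) had 1 counted GATA3 peak at -5.96 kb (9 reads, fold 1.67). Peaks at the Tox4 start itself were assigned by the authors to Rab2b, which overlaps Tox4 by 250 bases. They were a Bcl11b peak of 96 reads (fold 7.64) and a GATA3 peak of 32 reads (fold 3.01), both overlapping an input peak, and a GATA3 peak of 9 reads that did not. Tox4 also overlaps Mettl3 by 669 bases, and Tox overlaps the lncRNA Gm11802. Whether counting used strand is not stated, so reads from these overlaps cannot be told apart.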

How the data were processed

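RNA was measured in 16 mouse Th2 libraries and binding in 3 ChIP libraries. Per the labels' protocols, RNA was amplified with the NuGEN Ovation kit and sequenced on Illumina HiSeq instruments. Counts are the authors' deposited reads per RefSeq transcript, without normalization. The deposited RPKM values divide those reads by transcript length and by a library total. Fold ratios, scores and the false discovery rate in percent of peaks are the authors' deposited values, per the file headers. For build mm10, MACS 1.4.2, Novoalign, Bowtie, TopHat2 2.0.13 and CASAVA 2.18 are listed in the submitters' processing notes, with no role given.

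Each gene was represented by its transcript with most reads. A gene was tested in an experiment if 2 or more of its 8 libraries reached an RPKM of 1, which left 10873 and 10601 genes. Each experiment was fitted apart, with 4 groups, in edgeR 4.0.16 (TMM, quasi-likelihood F test, Benjamini-Hochberg adjustment, threshold 0.05), in R 4.3.3 and Python 3.11.15. The code was tested on simulated data, and the recovery of changes is given with the Bcl11b results. Alternatives used DESeq2 1.42.0, limma 3.58.1 (pseudocounts of 1 and 0.1 added to RPKM before log2), other filters and scalings, a subtracted receptor background, a replicate block and left-out libraries. The read-count filter, the unfiltered base for Tox and the fit without both early Bcl11b-experiment WT libraries were added after the data were seen.

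The members, gene lists and comparisons were chosen with earlier results of these data known. Named genes are the 4 members, the targeted genes, up to 3 called genes with the smallest p-values per list and KO against WT comparison, and the 5 genes most like a member; not all are printed, and some appear in a comparison for which they were named in another. A marker of the B cell list is not reported here and was left out of its sum.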

Additional observations from a re-analysis of the deposited data

Results flagged for a closer look

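Late against early WT differences had opposite signs in the 2 experiments for 2 members, with every late library on one side of every early library in each experiment. For Tox the log2 change was -4.00 in the first (Bcl11b) and 1.56 in the second (Gata3), the latter from 4 early and 15 late reads without the filter on low values. For Tox4 it was -0.11 and 0.094. The difference between experiments was not tested, since they were fitted apart, and neither Tox4 value nor the Gata3-experiment Tox value was called. The share of all genes that meet this rule was not computed. Between late and early WT cells of the Gata3 experiment, edgeR called no gene.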

How the results depend on the processing

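Each group has only 2 libraries, and early Bcl11b-experiment WT rests on the least gene reads. Of the single-gene values recomputed with all libraries, 265 kept direction and side of the threshold, 27 changed sign, 2 became calls with the same sign and 1 lost its call. Of the 27, 7 were calls, all of Tox or Tox4 on a limma scale. The calls of Tox and Tox2 for late against early cells of the Bcl11b experiment and of Tox2 in both Gata3 comparisons held in every setting and with each library left out, with the sizes given in the report.

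Members called rose from 0 to 2 in the early Bcl11b comparison under limma on log2(RPKM + 1) and log2(RPKM + 0.1) (63.4% and 64% of genes called), and from 0 to 2 and 1 for the stage difference (55.7% and 53.8%). They rose from 1 to 2 in both Gata3 comparisons without a filter and with the read-count filter, which admit Tox. Requiring a fold enrichment of at least 10 left 0 Bcl11b, 0 GATA3 and 0 shared peaks in place of 5, 11 and 2. All genes called ranged over 1023 to 6960 (early Bcl11b, 2316 in the report), 89 to 1583 (late, 254), 205 to 6054 (stage difference, 376), 4106 to 7868 (late against early WT, 4561), 1107 to 2508 (late Gata3, 1491) and 1226 to 2398 (its stage difference, 1282). Without 1 library they ranged over 20 to 483 (late Bcl11b), 44 to 755 (stage difference), 2490 to 5105 and 2010 to 4798 (late against early WT and KO), 2099 to 3446 and 819 to 1481 (Gata3 early and late), 694 to 1428 (stage difference) and 1362 to 2557 (late against early KO).

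Signs changed for values not called in the report, and the cause was not tested. The limma fits used RPKM, which divides by a library total. Gene reads were 20.7% and 16.9% of that implied total in the early Bcl11b-experiment WT libraries, and 40.7% to 60.3% in the other 14 libraries. The part of these shares in the limma values was not tested. On the limma scales the genes called higher and lower were 6553 and 336 (early Bcl11b, 1123 and 1193 in the report), 263 and 5791 (stage difference, 242 and 134) and 7079 and 694 (late against early WT, 2150 and 2411), with medians over all genes of 0.86, -1.04 and 1.04, all at pseudocount 1. For late Bcl11b they were 138 and 81, and 381 and 206 in DESeq2 (194 and 60 in the report), and for the Gata3 stage difference 602 and 667 (796 and 486). The unfiltered and read-count fits moved the early Bcl11b median to -0.69 and -0.20. Under the limma settings (pseudocounts 1, then 0.1), Tox2 was 0.034 and 0.13 in the early Bcl11b comparison, where Tox4 was 1.04 and 1.12. Tox4 was -0.16 and -0.17 late, 1.25 and 1.34 for late against early WT, and 0.054 and 0.058 for KO. The stage differences were -1.14 and -1.23 (Tox), -0.28 and -0.40 (Tox2), and -1.19 and -1.28 (Tox4). With receptor background subtracted, Tox2 was 1.97 early and -2.09 for the stage difference. Without a filter, Tox4 was 0.23 early, -0.0032 late, -0.23 for the stage difference and 0.16 for late against early WT, and Tox was -0.10 for the stage difference. With the read-count filter Tox4 was 0.11, -0.092, 0.14 and 0.045 (early, stage difference, late against early WT and KO).

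Leaving out 1 library each, Tox2 ranged from -3.22 to 1.29 (early Bcl11b), -0.49 to 0.34 (late), -1.43 to 3.09 (stage difference) and -0.97 to 0.42 (late against early WT, Gata3 experiment). Tox4 ranged from -0.23 to 0.11, -0.081 to 0.13 and -0.093 to 0.25 in the 3 Bcl11b comparisons, and from -0.20 to 0.14 for late against early KO. Tox ranged from -0.32 to 1.04 for the Bcl11b stage difference and from -0.79 to 0.22 for late against early Gata3 KO. The call of Tox in late Gata3 KO cells held with each library left out (adjusted p up to 0.0446).

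With a replicate block, Tox2 was called in the early and late Gata3 comparisons (adjusted p = 2.40e-08 and 4.13e-07), and no member's call changed. Over all genes the block moved calls from 3262 to 4238 (early Gata3), 1491 to 2508 (late Gata3), 1282 to 2398 (its stage difference) and 376 to 205 (Bcl11b stage difference). Correlations of replicate differences between groups were -0.08 to 0.35 in the Bcl11b and 0.17 to 0.61 in the Gata3 experiment, all positive in the latter, which hints at an effect shared by number there. The labels do not say what a number shares, and with 2 numbers per group the correlations cannot settle the pairing.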
